A study of Mus musculus with 12 samples.

Results

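The genes described here are those of the mouse major histocompatibility complex (MHC, called H2 in the mouse) and of antigen presentation, measured by RNA sequencing of whole hearts. They are the entries of the deposited table whose symbol begins with H2-, with B2m, Cd74, Tap1, Tap2, Tapbp, Ciita and Nlrc5, kept where at least 1 of the 12 libraries held a count of 10 or more. Of 52 such entries 30 met that minimum, 23 of them H2 genes and 7 the genes listed by name, out of 54178 gene entries in the table. Expression did not enter the choice beyond that minimum. The minimum fell between H2-M6-ps and H2-M5, whose highest counts were 12 and 11, and H2-T-ps and H2-Oa, whose highest counts were 7 and 6. Of the 22 entries not kept, 11 had a count of 0 in every library. Of the 30 genes, 28 passed the filter on low counts of the test, and H2-M5 and H2-M6-ps did not.

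MHC class I molecules sit on nearly every nucleated cell and show peptides from inside the cell to CD8 T cells and natural killer cells. Their heavy chain (H2-K1, H2-D1 and the less polymorphic Q, T and M genes) pairs with beta-2 microglobulin (B2m) and is loaded in the endoplasmic reticulum by the peptide transporter Tap1-Tap2 and by tapasin (Tapbp). MHC class II molecules are made mainly by dendritic cells, macrophages and B cells, show peptides taken up from outside to CD4 T cells, and need the invariant chain (Cd74) and the peptide editors H2-DM and H2-O. Nlrc5 is the transactivator of class I genes and Ciita that of class II genes, and interferon gamma raises both. In the heart, class II is known from resident macrophages and dendritic cells and class I is prominent in endothelium.

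The study compared 4 groups of 3 libraries at 8 weeks. Flox mice carried CITED4 flox/flox alleles, which KO mice share and combine with aMHC-cre, a cre transgene driven by a cardiomyocyte promoter. No group had cre with intact Cited4, so loss of Cited4 and presence of the transgene cannot be told apart. Each genotype was labelled sedentary or exercise, the latter being voluntary wheel running. Age and strain are not in the labels, and neither is which animal gave which library, so the spread behind each p-value is that between libraries and may be technical. The group names used here follow the treatment words. Codes in the titles read the other way (E beside the sedentary word, S beside the exercise word), and if the codes were right every exercise difference and the interaction would change sign and the 2 genotype comparisons would exchange names.

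Counts assigned to genes totalled 17465432 to 20467300 per library, and the 30 genes took 0.0804% to 0.166% of them. Cited4 itself, in CPM (counts scaled to a common library size), was 16.3, 10.1 and 14.9 in sedentary Flox and 23.2, 13.7 and 23.9 in exercise Flox, against 0.241, 0.0895 and 0 in sedentary KO and 0.155, 0 and 0 in exercise KO. All 8 cardiomyocyte markers were measured, with a summed level of 60745 to 63139 CPM in sedentary Flox, 55890 to 58921 in exercise Flox, 44964 to 54239 in sedentary KO and 49080 to 61037 in exercise KO. Atrial markers, 8 genes, summed to 10997 and 21299 CPM in sedentary KO replicates 2 and 3 and to between 208 and 4714 CPM in the other 10 libraries, so these hearts held unequal amounts of atrial RNA. Counts for entries named after cloning vectors were 0.0731% to 0.186% of all counts in 7 libraries and at most 0.00416% in the other 5, which were sedentary Flox 1, exercise Flox 2, sedentary KO 2 and 3 and exercise KO 2. In bulk tissue, fewer cells of a type and less RNA per cell cannot be told apart.

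Gene positions are those of GENCODE M21 on GRCm38, matched by symbol. On chromosome 17 lay 26 of the 30 genes, and the H2 entries among them run from 33974659 to 37274484. The exceptions were B2m on chromosome 2, Nlrc5 on 8, Ciita on 16 and Cd74 on 18. The promoters of the class I and class II genes are shown because they carry a common arrangement that the choice of genes did not use. Both transactivators, Nlrc5 and Ciita, act through proteins held on the X and Y boxes of these promoters. RefSeq promoters (GRCm38.p6) were matched for 20 of the 30 genes, with none matched for Cd74, Ciita, H2-Ab1, H2-K2, H2-M6-ps, H2-Q5, H2-T10, H2-T24, Nlrc5 and Tap2. In the 250 bases before the start, on either strand, 11 of the 20 held TGACG or TGATG (the letters of the X2 half-site) followed by ATTGG (those of the Y box) with 18 to 23 bases between them, against 0.639% of 32851 promoters. The letters ATTGG alone were in 18 of the 20 and in 33.8% of all promoters. The letters TTTCANTT, the core of an interferon response element, were in 9 of the 20 and in 5.7% of all. A gene was counted where any of its promoters matched, while the shares are over single promoters, so the 2 are not counted alike. The windows of H2-Q4, H2-Q6 and H2-Q7 are closely similar. Those of H2-K1 and H2-D1 share long runs with each other and resemble the Q windows, and those of H2-DMb1 and H2-DMb2 resemble each other. The matches within these sets are therefore not separate findings. These motifs were chosen after the sequences were seen, and the paired X2 and Y letters include the Y box counted alone. A match describes the letters of the window and not binding. The windows below are written 5′ to 3′ on the strand of the gene, and capitals mark the matches, first TTTCANTT where present, then the X2 letters and the Y box.
H2-K1 (chr17:34000354-34000448, reverse strand): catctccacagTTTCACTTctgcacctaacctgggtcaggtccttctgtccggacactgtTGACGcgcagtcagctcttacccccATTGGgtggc
H2-Q4 (chr17:35379450-35379547, forward strand): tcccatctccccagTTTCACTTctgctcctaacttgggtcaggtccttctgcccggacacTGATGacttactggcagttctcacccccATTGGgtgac
H2-Q6 (chr17:35424684-35424780, forward strand): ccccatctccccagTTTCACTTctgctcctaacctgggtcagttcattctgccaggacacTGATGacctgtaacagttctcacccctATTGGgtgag
H2-Q7 (chr17:35439028-35439124, forward strand): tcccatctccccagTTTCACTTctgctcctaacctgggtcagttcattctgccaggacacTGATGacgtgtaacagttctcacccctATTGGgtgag
B2m (chr2:122147589-122147643, forward strand): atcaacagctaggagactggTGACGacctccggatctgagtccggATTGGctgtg
H2-Aa (chr17:34287862-34287917, reverse strand): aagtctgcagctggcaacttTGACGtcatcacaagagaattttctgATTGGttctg
H2-Eb1 (chr17:34305761-34305817, forward strand): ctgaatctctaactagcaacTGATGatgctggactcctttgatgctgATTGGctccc
The 4 class I heavy chain windows hold TTTCANTT, the X2 letters and the Y box in that order. The windows of B2m, H2-Aa and H2-Eb1 begin nearer to the X2 letters and are shown for the X2 and Y letters alone. B2m was among the 9 genes with TTTCANTT, which lay outside the window shown, and H2-Aa and H2-Eb1 were not.

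Scaled by exon length so that genes can be compared, the light chain and the classical heavy chains stood at the top. The mean level over all libraries was 237 CPM per kilobase for B2m, 76.0 for H2-D1 and 62.4 for H2-K1, then 43.4 for Cd74, 31.5 for H2-Ke6 and 23.004 for Tapbp. Class II chains lay lower, at 15.3 CPM per kilobase for H2-Eb1, 9.89 for H2-Ab1 and 8.10 for H2-Aa. The transactivators lay at 0.840 CPM per kilobase for Nlrc5 and 0.226 for Ciita, below the classical chains, and some minor genes of either class were as low or lower (H2-T10 at 0.537, H2-Q10 at 0.167 and H2-Ob below Ciita). H2-M5, with 0 counts in some libraries, was lowest at 0.0599.

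**Figure D1:**
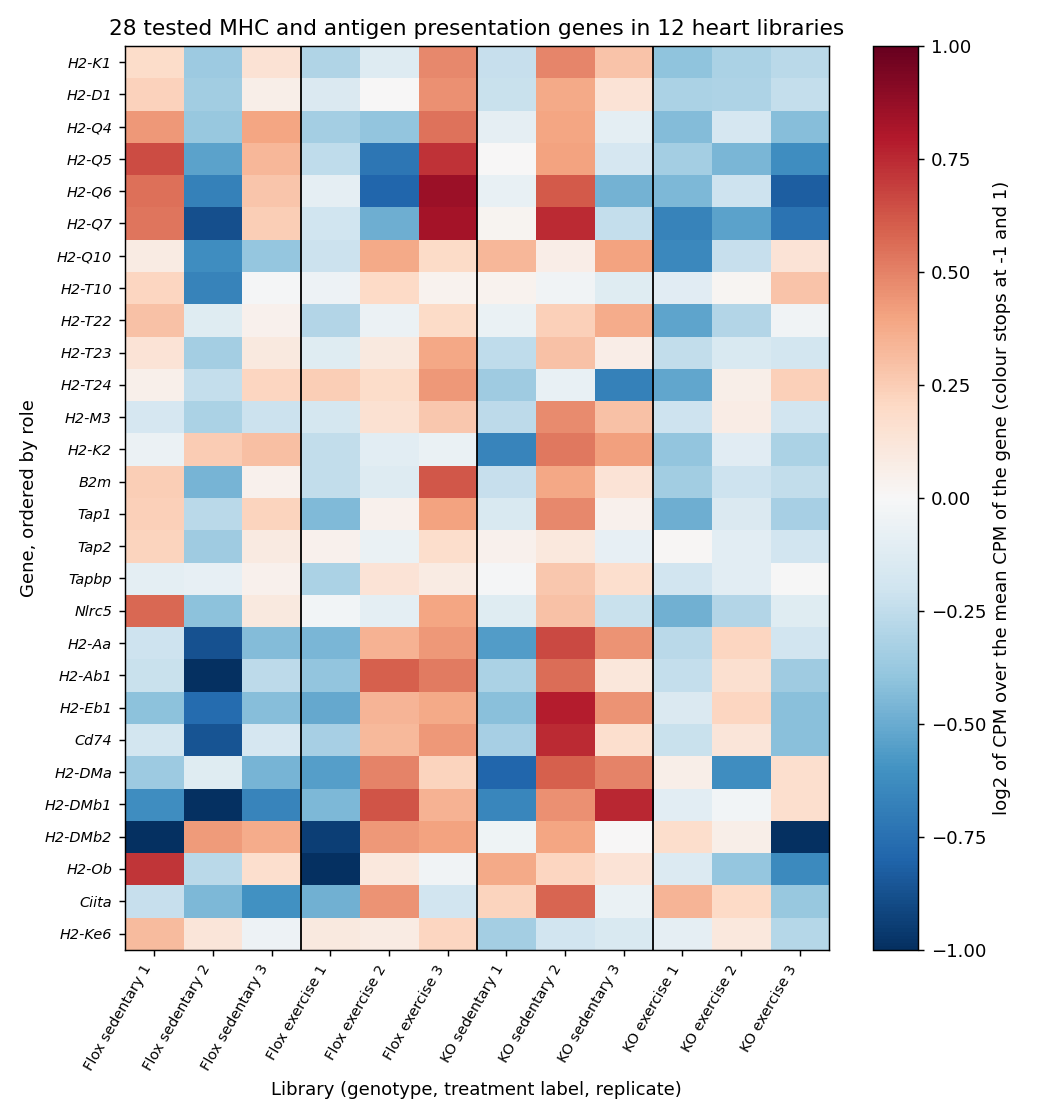
Level of each of the 28 tested genes (vertical axis, ordered by role) in each of the 12 libraries (horizontal axis), as log2 of its CPM over its own mean CPM, with colour stopping at -1 and 1. Many class I genes are high in sedentary Flox 1 and 3, exercise Flox 3 and sedentary KO 2. Sedentary KO 3 is also high for H2-K1, H2-D1, B2m and H2-T22 but not for H2-Q6 and H2-Q7. The class II genes H2-Aa, H2-Ab1, H2-Eb1, Cd74, H2-DMa and H2-DMb1 are high in exercise Flox 2 and 3 and sedentary KO 2 and 3. H2-Ob, Ciita and H2-DMb2 follow this only in part.

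H2-K1, a classical heavy chain, was measured at 208, 143 and 202 CPM in sedentary Flox, 149, 168 and 256 in exercise Flox, 157, 257 and 223 in sedentary KO and 139, 147 and 152 in exercise KO. H2-D1, the other classical heavy chain, read 230, 154 and 204 CPM, then 177, 197 and 269, then 168, 255 and 216, then 158, 159 and 166 in the same order of groups. B2m, their light chain, read 242, 148 and 210 CPM, then 172, 186 and 314, then 174, 266 and 224, then 160, 176 and 172. All 3 genes thus had the same 2 highest libraries, exercise Flox 3 and sedentary KO 2, and a narrow exercise KO group. The exercise KO mean of H2-D1 was 161 ± 4.62 CPM (SD, n = 3), against SDs of 38.3 to 48.6 CPM in the other 3 groups. For H2-K1 the exercise KO mean was 146 ± 6.71 CPM (SD, n = 3), and its 3 libraries lay below all 3 sedentary KO libraries and overlapped with both Flox groups.

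The Q region genes are nonclassical heavy chains, among them the Qa-2 molecules of H2-Q6 and H2-Q7. H2-Q7 was at 31.8, 11.9 and 26.0 CPM in sedentary Flox, 19.1, 15.7 and 39.0 in exercise Flox, 22.3, 36.8 and 18.6 in sedentary KO and 13.8, 15.1 and 13.2 in exercise KO. H2-Q6 was at 27.6, 11.8 and 22.9 CPM, then 17.7, 10.9 and 34.1, then 17.9, 28.7 and 13.6, then 13.8, 16.3 and 10.6. These genes varied more between libraries than the classical heavy chains: the highest library was 3.27 times the lowest for H2-Q7 and 3.22 times for H2-Q6, but 1.85 times for H2-K1 and 1.74 times for H2-D1. H2-Q4 was at 57.7, 32.9 and 56.1 CPM in sedentary Flox, 33.8, 32.5 and 62.4 in exercise Flox, 40.2, 56.1 and 40.0 in sedentary KO and 31.6, 38.1 and 31.8 in exercise KO. Its 4 highest libraries were those in which H2-Q7 was highest. H2-Q5, annotated as a polymorphic pseudogene, lay between 1.89 and 5.15 CPM, and H2-Q10, known as a secreted liver class I molecule, between 0.464 and 0.959.

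Among T and M region genes, H2-T23, which encodes the Qa-1 molecule seen by natural killer receptors, was at 32.7, 23.5 and 31.8 CPM in sedentary Flox, 27.3, 31.8 and 38.9 in exercise Flox, 24.99, 36.4 and 31.1 in sedentary KO and 25.04, 26.7 and 26.2 in exercise KO. H2-T22, a ligand of some gamma delta T cells, was at 30.5, 22.9 and 25.5 CPM, then 20.2, 23.9 and 28.4, then 23.8, 29.3 and 32.1, then 17.2, 20.2 and 24.2. Their exercise KO libraries again lie low, though they overlap with sedentary KO for both genes. H2-T24 had means of 7.93 ± 1.24 CPM in sedentary Flox, 9.59 ± 0.886 in exercise Flox, 6.15 ± 1.27 in sedentary KO and 7.61 ± 1.94 in exercise KO (SD, n = 3 each). H2-M3, which presents N-formylated peptides, had means of 4.34 ± 0.228, 5.44 ± 0.847, 5.86 ± 1.45 and 4.76 ± 0.528 CPM in that order of groups (SD, n = 3 each). H2-K2, a transcribed pseudogene, ranged from 2.65 to 6.04 CPM.

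Of the loading genes, Tap1 was at 17.4, 12.2 and 17.2 CPM in sedentary Flox, 10.9, 15.2 and 19.5 in exercise Flox, 13.3, 20.5 and 15.2 in sedentary KO and 10.5, 13.4 and 11.7 in exercise KO. Tap2, the partner of Tap1 in the transporter, and Tapbp varied less, with a highest library 1.499 and 1.502 times the lowest. Tap2 had group means of 33.9 to 37.6 CPM and Tapbp of 78.1 to 92.4 CPM. Nlrc5, the class I transactivator, was at 10.6, 5.36 and 7.62 CPM in sedentary Flox, 7.01, 6.68 and 9.36 in exercise Flox, 6.56, 8.73 and 6.12 in sedentary KO and 5.10, 5.83 and 6.56 in exercise KO. Its highest libraries, sedentary Flox 1, exercise Flox 3 and sedentary KO 2, were also the 3 highest for B2m and for H2-Q7.

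Class II genes were arranged differently over the libraries. H2-Aa, the alpha chain of the A molecule, was at 26.7, 16.8 and 22.8 CPM in sedentary Flox, 22.4, 39.1 and 41.6 in exercise Flox, 20.9, 48.5 and 42.1 in sedentary KO and 25.5, 35.8 and 27.0 in exercise KO. H2-Ab1, its beta chain, was at 21.7, 12.4 and 21.2 CPM, then 19.3, 38.5 and 36.4, then 20.5, 37.5 and 27.5, then 21.6, 28.3 and 19.9. H2-Eb1, the beta chain of the E molecule, was at 22.4, 17.4 and 22.2 CPM, then 20.9, 37.7 and 38.8, then 22.2, 51.2 and 40.6, then 27.0, 34.5 and 22.3. In each of these 3 genes exercise Flox 1 and sedentary KO 1 lay within the range of sedentary Flox while the other 2 libraries of their groups stood above every sedentary Flox library. Cd74, the invariant chain, was at 64.2, 40.0 and 65.0 CPM in sedentary Flox, 57.8, 91.0 and 98.4 in exercise Flox, 57.8, 122 and 81.8 in sedentary KO and 62.5, 79.5 and 54.6 in exercise KO, the same arrangement.

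The peptide editor subunit H2-DMb1 was at 2.13, 1.42 and 2.07 CPM in sedentary Flox, 2.40, 5.05 and 4.16 in exercise Flox, 2.07, 4.48 and 5.52 in sedentary KO and 3.04, 3.20 and 3.68 in exercise KO. It was the one class II gene whose sedentary Flox libraries lay wholly below exercise Flox. Its partner H2-DMa had means of 2.76 ± 0.351, 3.72 ± 1.27, 4.003 ± 1.76 and 3.20 ± 0.865 CPM in that order (SD, n = 3 each). H2-Ob, the beta chain of the editor H2-O that restrains H2-DM, ranged from 0.513 to 1.77 CPM, and its alpha chain H2-Oa reached no more than 6 counts. Ciita, the class II transactivator, was at 1.83, 1.58 and 1.41 CPM in sedentary Flox, 1.54, 2.94 and 1.88 in exercise Flox, 2.51, 3.22 and 2.05 in sedentary KO and 2.73, 2.48 and 1.65 in exercise KO. All 3 sedentary KO libraries of Ciita lay above all 3 of sedentary Flox, at 27 to 72 counts per library over the whole series.

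H2-Ke6 lies in the MHC but encodes a hydroxysteroid dehydrogenase and not a presenting molecule. It was at 64.5, 56.4 and 49.97 CPM in sedentary Flox, 55.3, 54.9 and 60.2 in exercise Flox, 40.9, 45.2 and 46.6 in sedentary KO and 48.7, 55.6 and 42.6 in exercise KO. Its sedentary KO libraries lay below all Flox libraries.

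**Figure D2:**
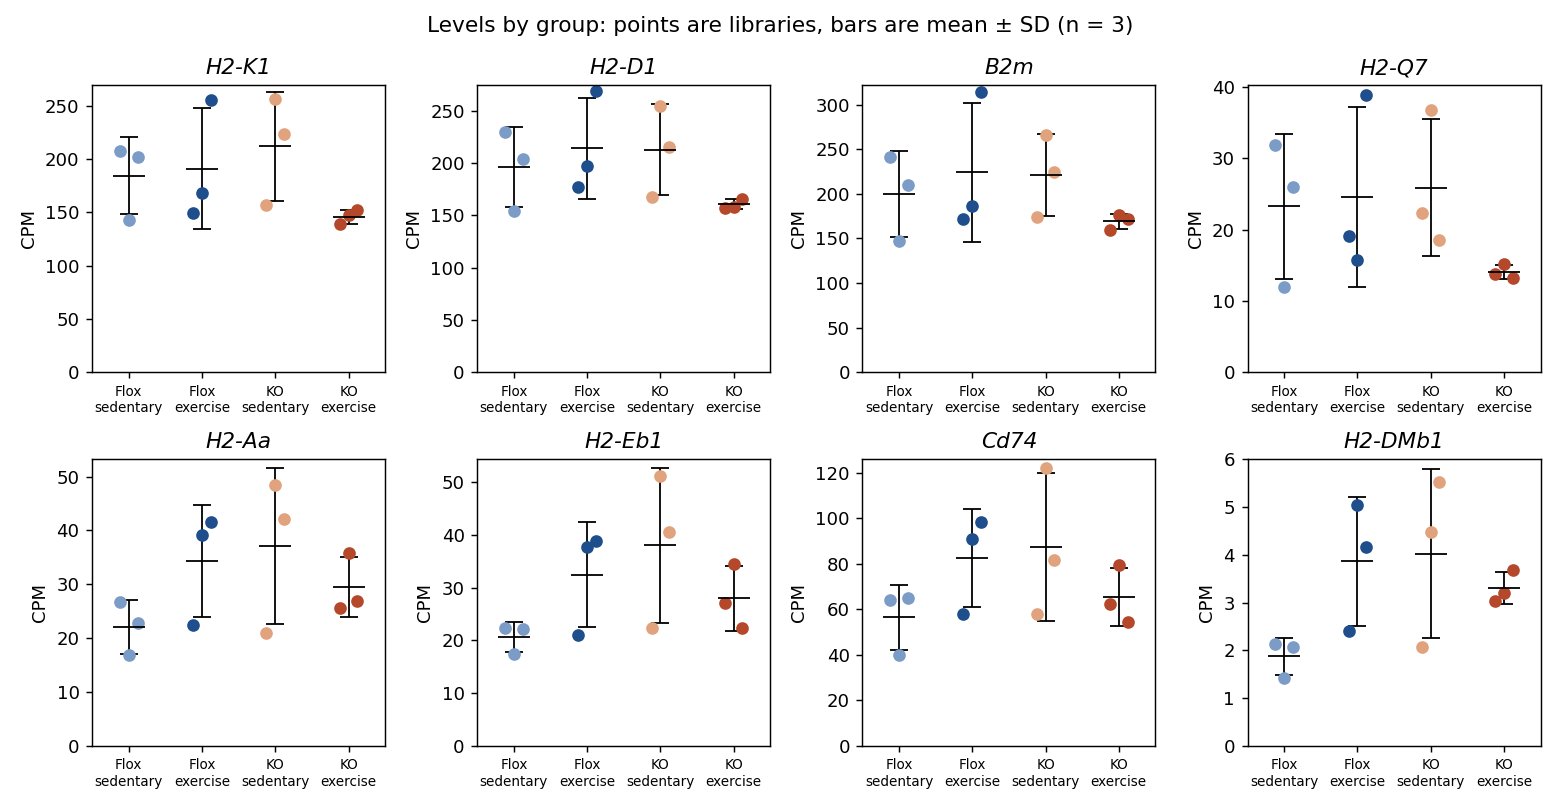
CPM (vertical axes, from 0) of 8 genes in the 4 groups (horizontal axes), with points for libraries and bars for mean ± SD (n = 3). The 3 exercise KO points lie close together and low for H2-K1, H2-D1, B2m and H2-Q7, and 2 of 3 points stand high in exercise Flox and in sedentary KO for H2-Aa, H2-Eb1 and Cd74.

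Whether the treatment label mattered in hearts with intact Cited4 was asked first. None of the 28 tested genes passed an adjusted p of 0.05 for exercise over sedentary Flox by edgeR's quasi-likelihood test over 15226 genes, where 0% of all genes passed. The smallest p-values belonged to class II genes: the log2 fold change was 1.05 ± 0.36 (SE, adjusted p = 0.562, edgeR) for H2-DMb1, 0.77 ± 0.31 (adjusted p = 0.623) for H2-Ab1 and 0.65 ± 0.31 (adjusted p = 0.687) for H2-Eb1. At an unadjusted p under 0.05, 2 genes were higher (3.86% of all genes) and 0 lower (3.56%). In either direction that count was 5 without exercise Flox 1 and 0 without exercise Flox 2, settings for which the share of all genes was not taken. DESeq2 called 0 members as well, with 0.318% of all genes called. H2-DMb1 was the 1 gene whose exercise libraries lay wholly above sedentary ones (7.5% of all genes) and H2-K2 the 1 whose libraries lay wholly below (6.57%). The median log2 fold change was 0.11 over the 28 genes and 0.01 over all genes.

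In KO hearts the fitted differences for the exercise label ran mostly the other way, and none passed. Of the 28 genes 0 passed, against 0.0197% of all genes. The log2 fold change was -0.47 ± 0.17 (SE, adjusted p = 0.387, edgeR) for H2-T22, -0.54 ± 0.22 (adjusted p = 0.430) for H2-K1 and -0.41 ± 0.19 (adjusted p = 0.472) for H2-D1. At an unadjusted p under 0.05, 0 genes were higher (4.35% of all) and 2 lower (6.27%), and DESeq2 called 0 members (0.652% of all). The exercise libraries lay wholly below the sedentary ones for 6 genes, H2-D1, H2-K1, H2-Ob, H2-Q4, H2-Q5 and H2-Q7 (7.31% of all genes), and wholly above for 0 (5.82%). The median was -0.37 over the 28 genes, 3 of them above 0, and -0.00 over all genes. Without sedentary KO replicate 2 the H2-D1 value was -0.25 (adjusted p = 0.895). The count at an unadjusted p, in either direction, was 10 without sedentary KO 1, 1 without sedentary KO 2 and 0 without sedentary KO 3. The share of all genes at that unadjusted p was not taken for these settings, so the counts cannot be set against it. Without sedentary KO 1 the smallest adjusted p of a member was 0.0544 (edgeR), and 566 genes of the whole table passed the adjusted threshold. Sedentary KO 2 and 3 are the libraries with the most atrial RNA, and with the atrial marker level as a covariate the values were -0.43 for H2-T22, -0.48 for H2-K1 and -0.36 for H2-D1 (adjusted p = 0.721, 0.756 and 0.783).

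The genotypes were then compared under the sedentary label, and 0 of the 28 genes passed, against 0.125% of all genes. Class II genes again had the largest positive values: the log2 fold change of KO over Flox was 1.11 ± 0.35 (SE, adjusted p = 0.205, edgeR) for H2-DMb1, 0.88 ± 0.31 (adjusted p = 0.259) for H2-Eb1, 0.75 ± 0.32 (adjusted p = 0.346) for H2-Aa and 0.69 ± 0.30 (adjusted p = 0.341) for Ciita. H2-Ke6 had -0.36 ± 0.12 (adjusted p = 0.216). At an unadjusted p under 0.05, 4 genes were higher (8.1% of all) and 1 lower (5.41%), and DESeq2 called 0 members (2.34% of all). Ciita was the 1 gene with KO wholly above Flox (10.4% of all) and H2-Ke6 the 1 wholly below (7.93%). The median was 0.13 over the 28 genes and 0.00 over all genes. This count depended on 1 library: without sedentary KO replicate 1, whose atrial sum was 1568 CPM, 2 genes passed, H2-DMb1 with 1.40 (adjusted p = 0.0299) and H2-Eb1 with 1.14 (adjusted p = 0.0457), while 479 genes of the whole table passed. With the atrial marker level as a covariate, the values were 0.58 for H2-DMb1, 0.69 for H2-Eb1 and -0.23 for H2-Ke6, each with an adjusted p of 0.999.

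Under the exercise label, 0 of the 28 genes passed between KO and Flox, against 0.00657% of all genes. The log2 fold change was -0.42 ± 0.19 (SE, adjusted p = 0.621, edgeR) for H2-D1, -0.33 ± 0.16 (adjusted p = 0.657) for H2-T23 and -0.81 ± 0.43 (adjusted p = 0.685) for H2-Q7. At an unadjusted p under 0.05, 0 genes were higher (3.87% of all) and 1 lower (4.07%), and DESeq2 called 0 members (0.0364% of all). KO lay wholly below Flox for H2-D1, H2-Q7, H2-T23 and Nlrc5, 4 genes (7.23% of all), and wholly above for 0 (7.61%). The median was -0.32 over the 28 genes, 2 of them above 0, and -0.01 over all. These values rested largely on exercise Flox replicate 3: without it they were -0.22 for H2-D1, -0.18 for H2-T23 and -0.31 for H2-Q7, each with an adjusted p of 0.966.

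The test of whether the exercise label difference itself differed between genotypes passed for 0 of the 28 genes (0% of all genes). The interaction on the log2 scale was -1.33 ± 0.49 (SE, adjusted p = 0.456, edgeR) for H2-DMb1, -1.10 ± 0.44 (adjusted p = 0.480) for H2-Eb1 and -1.06 ± 0.44 (adjusted p = 0.488) for H2-Ab1. At an unadjusted p under 0.05, 5 genes, these 3 with Cd74 and H2-M3, were lower (5.52% of all) and 0 higher (4.37%). That count, in either direction, was 11 without exercise Flox 1, 10 without sedentary KO 1, and 0 without exercise Flox 2, without sedentary KO 3 or with the atrial covariate. The share of all genes was not taken in these settings, so the changes cannot be read as particular to these genes. The DESeq2 test called 0 members (0.306% of all). The median was -0.49 over the 28 genes and -0.02 over all. With the atrial marker level as a covariate the values were -0.87 for H2-DMb1, -0.92 for H2-Eb1 and -0.85 for H2-Ab1 (adjusted p = 0.780, 0.780 and 0.781). Averaged over treatment labels, KO over Flox passed for 0 genes (0.0525% of all; by DESeq2 0, with 0.883% of all), with H2-Ke6 at -0.29 ± 0.08 (adjusted p = 0.239), H2-T24 at -0.35 ± 0.15 (adjusted p = 0.378) and Ciita at 0.40 ± 0.21 (adjusted p = 0.488). Averaged over genotypes, the exercise label passed for 0 genes (0.0263% of all; by DESeq2 0, with 0.273% of all), with H2-T22 at -0.29 ± 0.12 (adjusted p = 0.544), H2-Ob at -0.56 ± 0.26 (adjusted p = 0.598) and H2-K2 at -0.38 ± 0.18 (adjusted p = 0.603). At an unadjusted p under 0.05 these averages had 2 genes lower and 0 higher for KO (5.64% and 5.98% of all), and 1 lower and 0 higher for the exercise label (4.87% and 3.58% of all). A p that misses the threshold does not show that groups were alike.

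**Figure D3:**
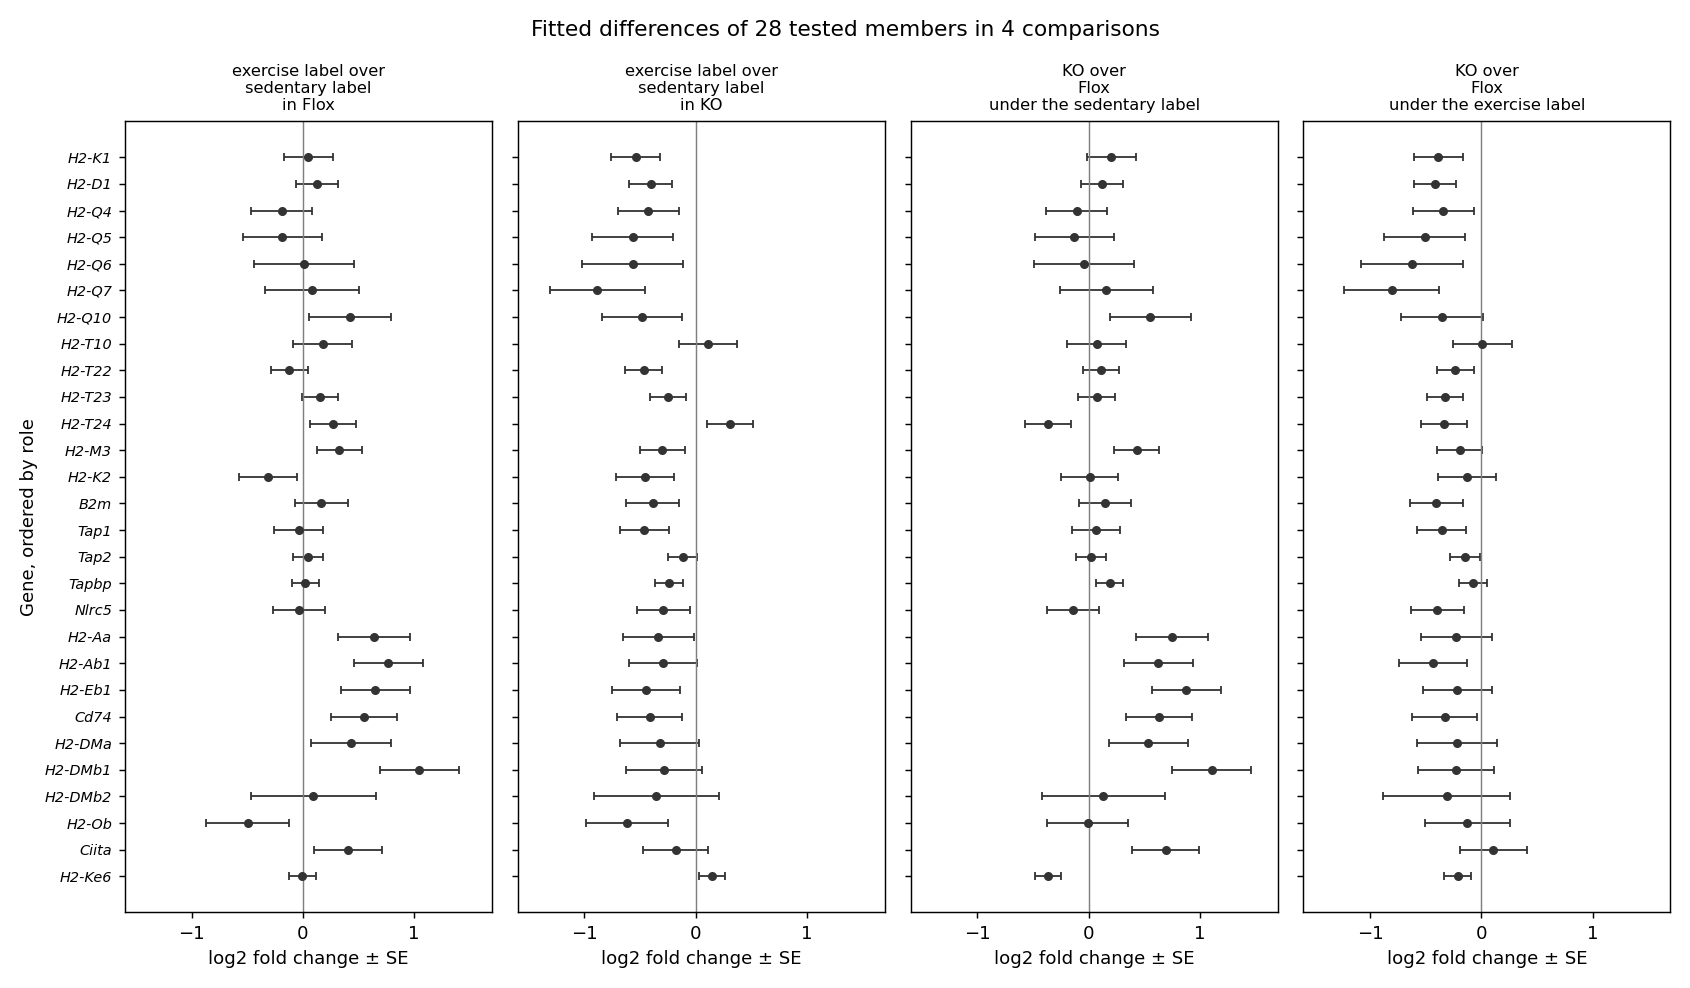
Fitted log2 fold change ± SE (horizontal axes) of the 28 tested genes (vertical axis, ordered by role) in 4 comparisons, from edgeR. Values for H2-Aa, H2-Ab1, H2-Eb1, Cd74 and H2-DMb1 lie right of 0 in the panels for the exercise label in Flox and KO under the sedentary label, which share the sedentary Flox libraries, and most genes lie left of 0 in the other 2 panels, which share the exercise KO libraries.

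Because the comparisons share groups, their values are set side by side and not counted as repeats. H2-DMb1 had 1.05 for the exercise label in Flox and 1.11 for KO under the sedentary label, both measured from the same 3 sedentary Flox libraries. H2-D1 had -0.41 for the exercise label in KO and -0.42 for KO under the exercise label, both measured at the same 3 exercise KO libraries. Values within the split by vector-named counts were as follows. In the 7 libraries above 0.01%, H2-Aa averaged 19.8 CPM in sedentary Flox, 32.0 in exercise Flox, 20.9 in sedentary KO and 26.2 in exercise KO. In the 5 libraries below it, the same means were 26.7, 39.1, 45.3 and 35.8 CPM, so exercise Flox was above sedentary Flox on both sides, while sedentary KO was near sedentary Flox on one side and well above it on the other. H2-K1 averaged 172, 202, 157 and 145 CPM above the split and 208, 168, 240 and 147 CPM below it, so its order of the 2 Flox groups turned with the split. Each side holds only 1 or 2 libraries of a group, and with the split as a covariate 0 of the 28 genes passed in each of the 7 comparisons. In those fits 13 genes of the whole table passed for KO under the sedentary label, and 0 for the exercise label in either genotype.

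Read assignment bears on the class I genes, whose sequences overlap. Among GENCODE M21 transcripts, 22.8% of the distinct 31-base words of H2-K1 also occurred in another gene and 11.1% in H2-D1, and for H2-D1 it was 26.7%, with 13.8% in H2-K1. Larger shares were found for several Q and T genes, with 50.3% for H2-Q6, 39.1% for H2-Q7, 57.9% for H2-Q5, 51.0% for H2-T22 and 50.7% for H2-T10, where 47.6% was shared with H2-T22, while H2-T23 and H2-T24 shared 24.5% and 6.43%. H2-DMb1 shared 31.4% of its words with H2-DMb2, which shared 29.7% of its own with H2-DMb1, and H2-Ke6 shared 76.1% with Gm20427. B2m, Nlrc5, H2-DMa and H2-Ob shared 0%, and H2-Aa, H2-Ab1, H2-Eb1 and Cd74 at most 1.41%. The levels of single Q and T genes are therefore uncertain in how reads were split between them. So are H2-K1 against H2-D1, H2-DMb1 against H2-DMb2, and H2-Ke6 against Gm20427. Leaving out entries at 0 throughout, the estimated counts that were not exact whole numbers made up 21.6% to 26.4% of the values of a library.

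Ratios of genes within a library were used to look for libraries that might carry different H2 alleles. H2-D1 over H2-K1 ranged from 0.967 to 1.19 over the 12 libraries, B2m over H2-K1 from 1.01 to 1.23, and H2-Eb1 over H2-Aa from 0.828 to 1.07. Ratios among Q genes ranged more widely, from 0.695 to 1.08 for H2-Q6 over H2-Q7 and from 1.52 to 2.76 for H2-Q4 over H2-Q7. H2-Q7 over H2-K1 ranged from 0.0832 in sedentary KO 3 to 0.153 in sedentary Flox 1. No tested gene had a highest library more than 4.16 times its lowest, the value for H2-DMb2. H2-Ea-ps, the alpha chain of the E molecule that is defective in the b haplotype of C57BL/6 mice and intact in several others, had 0 counts in all 12 libraries, which allows up to 3 counts or 0.134 to 0.177 CPM, while its partner H2-Eb1 had 332 to 1144 counts. H2-Bl had 0 counts in all but 2 libraries. No source used here gives the haplotype of the mice or the reference behind the counts, so alleles absent from that reference would not be seen. Summing H2-Q6 with H2-Q7 gave an exercise minus sedentary difference in KO of -0.68 in mean log2 CPM, against -0.82 for H2-Q7 alone, and summing H2-K1 with H2-D1 gave -0.45 against -0.51 for H2-K1 alone.

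Levels of the transactivators and their target classes were compared over the 12 libraries on log2 CPM, with permutation p-values adjusted over the 6 pairs computed. Nlrc5 was correlated with B2m (Pearson r = 0.825, permutation p = 0.00118, adjusted 0.00354, Spearman rho = 0.776 with permutation p = 0.00388, adjusted 0.00936) and with H2-K1 (r = 0.754, p = 0.00472, adjusted 0.00944, rho = 0.769 with p = 0.00468, adjusted 0.00936). Without the 2 libraries with the most extreme Nlrc5 levels, r was 0.771 and 0.720. Within the 7 libraries above the vector split, r was 0.908 and 0.903 (exact permutation p = 0.00179 and 0.00139, both adjusted to 0.00536), and the 5 below it were too few. H2-Aa and Cd74 had r = 0.942 (permutation p = 3e-05, adjusted 0.00018, rho = 0.846 with p = 0.00087, adjusted 0.00522), r = 0.902 without the 2 farthest libraries, and r = 0.913 within the 7 (exact permutation p = 0.0220, adjusted 0.0441). Within the 7 the Spearman rho of this pair was lower, at 0.571. Exercise Flox 3 stood apart there, with H2-Aa at 41.6 CPM against 16.8 to 27.0 in the rest of the 7. Ciita had r = 0.611 with Cd74 (permutation p = 0.0349, adjusted 0.0419, rho = 0.559 with p = 0.0635, adjusted 0.0762) and r = 0.567 with H2-Aa (p = 0.0570, adjusted 0.0570, rho = 0.532 with p = 0.0794, adjusted 0.0794). Without the 2 farthest libraries, sedentary KO 2 and exercise Flox 2, these were 0.315 and 0.307, so the relation with Cd74 rests on those libraries and that with H2-Aa did not pass with them, and within the 7 they were 0.183 and 0.144 (exact permutation p = 0.662 and 0.755, both adjusted to 0.755). These values share libraries, depth and tissue makeup.

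**Figure D4:**
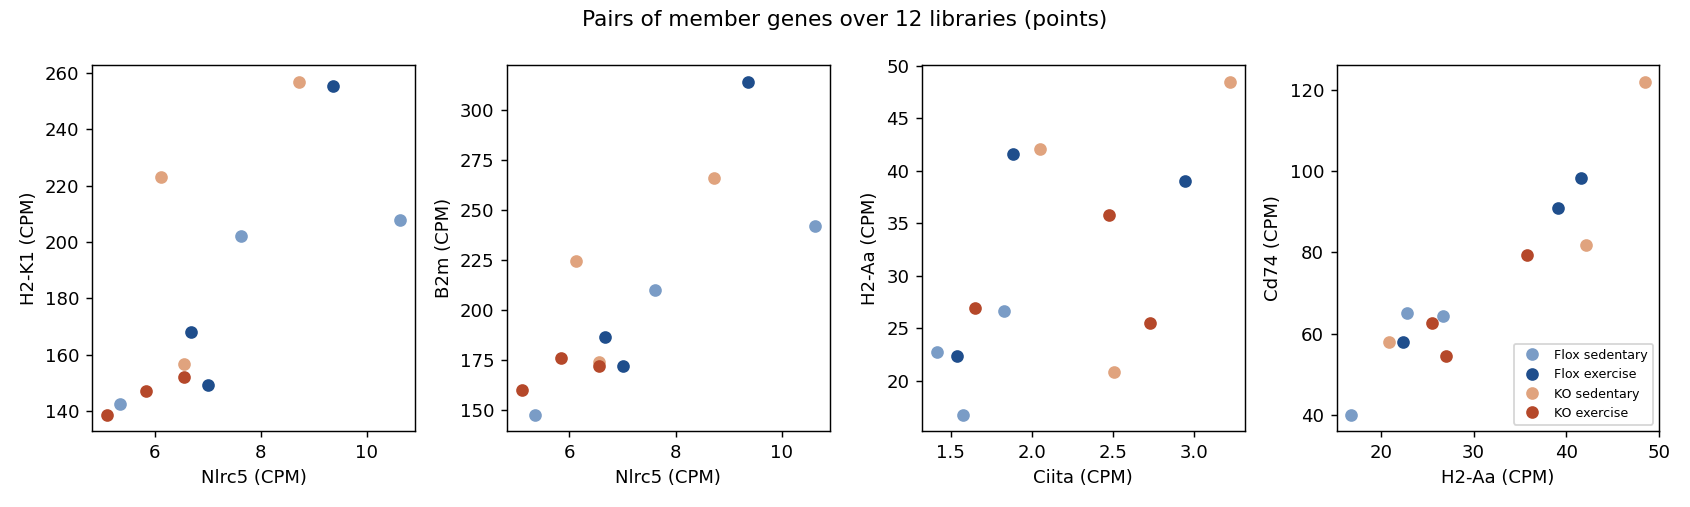
Levels in CPM of 4 pairs of genes (both axes of each panel), with 1 point for each of the 12 libraries coloured by group. H2-K1 and B2m lie higher where Nlrc5 is higher (r = 0.754 and 0.825 on log2 CPM), H2-Aa and Cd74 lie along a line (r = 0.942), and H2-Aa scatters widely against Ciita (r = 0.567).

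Other genes of the pathway were read from lists named for their role. None of the 11 tested genes of class I processing, the 8 of class II processing, the 13 transcription factors of MHC promoters, the 9 of interferon gamma signalling, the 22 induced by interferons, the 5 of costimulation or the 4 other presenting molecules passed in the 7 comparisons. Psme1, a subunit of the proteasome activator, had a log2 fold change of -0.35 ± 0.10 (SE, adjusted p = 0.167, edgeR) for KO under the sedentary label. Rfx5, which binds the X box, had -0.51 ± 0.15 (adjusted p = 0.523) for the exercise label in Flox, and its partner Rfxank had 0.45 ± 0.14 (adjusted p = 0.206) for KO under the sedentary label. For KO over Flox under the exercise label, 9 of the 22 interferon-induced genes were lower (4.07% of all genes) and 0 higher (3.87%) at an unadjusted p under 0.05, with a median of -0.43, among them Cxcl9 at -0.84 ± 0.30 (adjusted p = 0.601). In that comparison 5 of 10 endothelial markers were lower (4.07% of all genes) and 0 higher (3.87%) at an unadjusted p under 0.05. Whether the 2 counts are related was not tested. Ifng itself was at 0 in 11 libraries and at 0.207 CPM in exercise KO 2.

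Markers of cells that carry class II were set beside the class II levels. The 14 macrophage markers summed to 362, 310 and 330 CPM in sedentary Flox, 355, 679 and 451 in exercise Flox, 357, 531 and 554 in sedentary KO and 361, 375 and 583 in exercise KO. The 4 libraries highest in H2-Aa, exercise Flox 2 and 3 and sedentary KO 2 and 3, were thus 4 of the 5 highest in macrophage markers, and exercise KO 3 was high in macrophage markers (583 CPM) with H2-Aa at 27.0 CPM. Csf1r, the macrophage growth factor receptor, was at 61.5 and 43.9 CPM in exercise Flox 2 and 3 and at 59.2 in both sedentary KO 2 and 3, against 28.9 to 46.1 CPM in the other 8. For the exercise label in Flox, 5 of the 14 macrophage markers were higher (3.86% of all genes) and 0 lower (3.56%) at an unadjusted p under 0.05, and none passed the adjusted threshold. The 10 dendritic cell markers, of which 6 were tested, summed to 37.5 to 61.5 CPM in sedentary Flox, 51.5 to 64.1 in exercise Flox, 45.0 to 51.8 in sedentary KO and 40.7 to 45.8 in exercise KO. Over the libraries Flt3 was at 0 to 0.736 CPM, Itgax at 0.399 to 1.89, Cd209a at 0 to 1.998 and Zbtb46 at 15.7 to 29.4. Zbtb46 thus weighs far more in the sum than Flt3, Itgax or Cd209a, and the sum can differ from the calls per gene. For KO under the sedentary label, 3 of the 6 tested dendritic cell markers were higher (8.1% of all genes) and 0 lower (5.41%) at an unadjusted p under 0.05, with a median of 0.63. Of the 6, 4 had values above 0 and the rest did not. Zbtb46 was at 29.4, 18.6 and 18.3 CPM in sedentary Flox and at 21.4, 19.0 and 15.7 in sedentary KO. In the same comparison 1 of the 14 macrophage markers was higher and 0 lower, with a median of 0.45. The 10 B cell markers summed to 11.7 to 14.9, 11.7 to 14.6, 15.1 to 17.2 and 10.8 to 13.7 CPM in that order of groups. The 12 T and NK cell markers, 2 of them tested, summed to 2.36 to 3.19, 2.47 to 4.32, 2.51 to 5.64 and 1.87 to 2.99 CPM, with Cd3e at 0 to 0.413 CPM. Some adipocyte markers passed where no MHC gene did. For KO over Flox with the sedentary label, 3 of 7 tested were higher (0.125% of all genes passed in either direction), Cidec at 5.36 ± 0.57 (adjusted p = 0.0037, edgeR) among them. Of the 7, 5 had values above 0 and the rest did not. For the exercise label in KO 1 of 7, Cidec at -3.48 ± 0.48 (adjusted p = 0.0483, edgeR), was lower (0.0197% of all), with 5 of 7 lower at an unadjusted p under 0.05 (6.27% of all). The summed level of the 8 adipocyte genes overlapped between the sedentary groups. It was 503 to 725 CPM in sedentary Flox, 462 to 646 in exercise Flox, 465 to 612 in sedentary KO and 340 to 546 in exercise KO. Cardiomyocyte markers had values opposite in sign to those of class II: for KO under the sedentary label, 4 of 8 were lower (5.41% of all genes) and 0 higher (8.1%) at an unadjusted p under 0.05, with a median of -0.35 and none past the adjusted threshold. The 10 endothelial markers summed to 1034 to 1362, 1072 to 1300, 957 to 1144 and 855 to 1049 CPM, lowest in the exercise KO group, where the class I genes also lay low. The part of these cell markers in the MHC values was not tested.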

How the data were processed

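The submitters' processing notes name Salmon and FastQC, and 2 builds (mm9, mm10) without saying what each was for. The authors deposited 1 table of estimated counts per gene symbol (expected counts, not whole), made from 12 ribosome-depleted libraries. Its annotation and its strand handling, like the way transcripts were summed, were not given in the sources used here. Of 55874 entries, 1696 named like vectors were left out.

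Counts were rounded and analysed in R 4.3.3 by edgeR 4.0.16 (filterByExpr, TMM scaling, robust quasi-likelihood fit of the 4 groups, 15226 genes, Benjamini-Hochberg at 0.05). SEs are the log2 fold change over the square root of F. Levels are TMM-scaled CPM, also divided by union exon length. The code was tested on simulated data. Alternatives were DESeq2 1.42.0, RLE scaling, no filter, a replicate block, an atrial covariate, each library left out, and, chosen after seeing the data, the vector split. Correlations used 100000 resamples, and log2 CPM with a prior count of 2. Of the 6 pairs, 1 is not reported here.

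The genes, lists and tests were chosen with earlier results of these data known. Named with values were the genes of each role, the 3 smallest p-values per comparison, any gene called, and any with a highest library over 8 times its lowest (none). Totals of 17465432 to 20467300 counts limit precision for genes near the filter, and the limit that a count of 0 allows (3 counts) covers counting error only.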

Additional observations from a re-analysis of the deposited data

How the results depend on the processing

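The count of 0 genes called held in all but 1 of 126 alternatives over the 7 comparisons (RLE scaling, DESeq2, no filter, the replicate block, the atrial covariate, the vector split and each library left out). The exception was KO over Flox under the sedentary label, where leaving out 1 library gave counts of 0 to 2, with 2 without sedentary KO replicate 1. Over the alternatives, 2 to 479 genes of the whole table passed for that comparison and 0 to 44 for the exercise label in Flox. So few genes passed in most settings that a count of 0 among the 28 is not particular to them. Of 378 alternative values of 21 gene differences, 0 changed sign, and 2 passed the threshold, those of H2-DMb1 and H2-Eb1 given in the report. These differences were picked for having the smallest p-values of each comparison in the main edgeR fit. The alternatives reuse all or nearly all of the same libraries. A kept sign was therefore likely from the choice alone and is not separate evidence for these differences.

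With the replicate block, 0 of the 28 genes were called in each comparison. In that setting 37 genes of the whole table passed for KO under the sedentary label, 4 for the exercise label in KO and 0 for it in Flox. Deviations of same-numbered libraries had r of -0.319 to 0.306 over 18 pairs, 6 of them over 0.1, and 6 of 12 libraries correlated best with their own number. The labels do not say that the numbers pair the libraries, and with so few libraries these values cannot settle it.

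The correlation of Ciita with Cd74 no longer passed when centred on group means (0.508), without the 2 farthest libraries (0.315) and in the 7 libraries above the vector split (0.183). Fewer libraries enter the last 2 settings, and the cause was not tested. Depth limits Ciita, H2-DMb2, H2-Ob and H2-Q10, with 3.22 counts at the lowest for H2-DMb2.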
